A study of Mus musculus with 10 samples.

Results

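The genes described here encode enzymes and a binding protein of retinoid (vitamin A) metabolism together with related short-chain dehydrogenases, in cultured mouse keratinocytes with and without Sgpp1. The set holds 9 named genes, Sdr16c5, Sdr16c6, Sdr42e1, Rdh12, Rdh10, Dhrs9, Aldh1a3, Cyp26b1 and Crabp2, and every probe set that the annotation table pairs with 1 of them and no other gene was read. That gave 12 probe sets for 8 genes, out of 45101 probe sets and 18193 genes on the array. Dhrs9 had no probe set of its own in that table and is not analysed here. The genes were proposed with the KO minus WT differences of these same arrays known and count as chosen by them, so those differences are a description of these arrays and no p-value is read from them.

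The keratinocytes are epidermal epithelial cells taken from mouse skin, 5 samples labelled Sgpp1+/+ (WT 1 to 5) and 5 labelled Sgpp1-/- (KO 8, 9, 10, 21 and 23). Sgpp1 encodes a phosphatase of the signalling lipid sphingosine-1-phosphate. All 10 samples were cultured for between 3 and 4 days in EMEM holding 0.05 mM calcium and 8% fetal calf serum, a low calcium level that keeps such cells largely basal, and each was read on 1 Affymetrix Mouse Genome 430 2.0 array. The age of the mice, the strain and the way the allele was disrupted are not given in the sources used here. Whether the samples are separate animals or cultures is not given either, so the spread between arrays may be partly technical. Y-linked signal was missing on 3 WT and 3 KO arrays and present on the others, so the arrays of a group do not all repeat 1 sample.

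Retinol reaches the cell from the blood and is oxidised in 2 steps. Short-chain dehydrogenases turn retinol into retinaldehyde, and related enzymes run the reaction backwards. Aldehyde dehydrogenases then make retinoic acid irreversibly, a binding protein hands it to nuclear receptors in the nucleus, and cytochromes of the Cyp26 family destroy it. In the epidermis retinoic acid is known to restrain terminal differentiation, and skin cells express several enzymes of each step.

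RefSeq promoter sequences (GRCm38.p6) were found for 4 of the 9 genes, Sdr16c6, Rdh12, Cyp26b1 and Dhrs9. The 250 bases before the start are shown for the 3 with values on the arrays, because Sdr16c6 and Rdh12 are dehydrogenase genes that read higher in KO and Cyp26b1, which encodes the retinoic acid hydroxylase, did not. Sdr16c6 lies at chr4:4077515-4077764 on the minus strand, Rdh12 at chr12:79208663-79208912 on the plus strand and Cyp26b1 at chr6:84593811-84594060 on the minus strand. Each is written 5′ to 3′ along the gene's strand, and capitals mark TATAA and CACCC on either strand (TTATA and GGGTG on the other).
Sdr16c6: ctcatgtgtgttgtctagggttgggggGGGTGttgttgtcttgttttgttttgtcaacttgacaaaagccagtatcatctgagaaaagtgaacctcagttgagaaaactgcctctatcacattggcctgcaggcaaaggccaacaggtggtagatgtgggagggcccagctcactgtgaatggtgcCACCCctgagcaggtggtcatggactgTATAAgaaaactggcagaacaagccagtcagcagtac
Rdh12: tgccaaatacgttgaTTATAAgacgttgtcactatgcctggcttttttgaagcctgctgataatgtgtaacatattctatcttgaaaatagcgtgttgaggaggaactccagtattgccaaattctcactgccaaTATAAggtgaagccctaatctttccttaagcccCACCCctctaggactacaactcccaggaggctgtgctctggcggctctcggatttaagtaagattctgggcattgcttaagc
Cyp26b1: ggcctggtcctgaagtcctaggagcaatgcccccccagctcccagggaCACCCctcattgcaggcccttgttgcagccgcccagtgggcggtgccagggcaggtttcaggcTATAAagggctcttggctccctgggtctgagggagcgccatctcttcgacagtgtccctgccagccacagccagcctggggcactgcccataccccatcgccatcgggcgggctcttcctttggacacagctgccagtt
Sdr16c6 holds TATAA from 37 to 33 bases before its start. In Cyp26b1 the match lies 139 to 135 bases before the start. Rdh12 holds it at 115 to 111 bases and again at 234 to 230 bases, the latter overlapping TTATA by all but 1 base at each end. TATAA occurs on either strand in 22.7% and CACCC in 52.1% of the 32536 promoters of this length. AGGTCA, the hexamer that retinoic acid receptors recognise, was searched on both strands with its direct repeats AGGTCANAGGTCA, AGGTCANNAGGTCA and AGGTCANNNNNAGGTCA, as were TGANTCA, the AP-1 site, and AACCNGTT, the grainyhead motif. None of these letters is in the 3 windows shown. The window of Dhrs9, which is not shown because that gene has no value here, holds TGACCT, the other strand of AGGTCA, from 88 to 83 bases before its start and TGACTCA, a match to TGANTCA, from 18 to 12. AGGTCA occurs in 14.0%, TGANTCA in 6.73% and AACCNGTT in 1.79% of all promoters.

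In KO 4 dehydrogenase genes rose, Sdr16c6 by 4.27-fold, Rdh12 by 2.40-fold, Sdr16c5 by 2.32-fold and Sdr42e1 by 1.82-fold. The genes for the next steps, Aldh1a3, Cyp26b1 and Crabp2, and the dehydrogenase gene Rdh10 did not pass the threshold. Of the 8 measured genes 4 were thus called higher and 0 lower by limma, at a Benjamini-Hochberg adjusted p below 0.05 over all 18193 genes. At an unadjusted p below 0.05, 0 of the 8 genes were lower, read by the brightest probe set of each, and 2 of the 12 probe sets, both of Aldh1a3. Over all genes 2.65% were called, 2.30% higher and 0.346% lower, and nothing is read from the count in a set chosen this way. The same 4 genes read higher on each KO array than on any WT array, which held for 3.36% of all genes. The median difference of the 8 genes was 0.65 on the log2 scale and that of all genes -0.01.

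**Figure D1:**
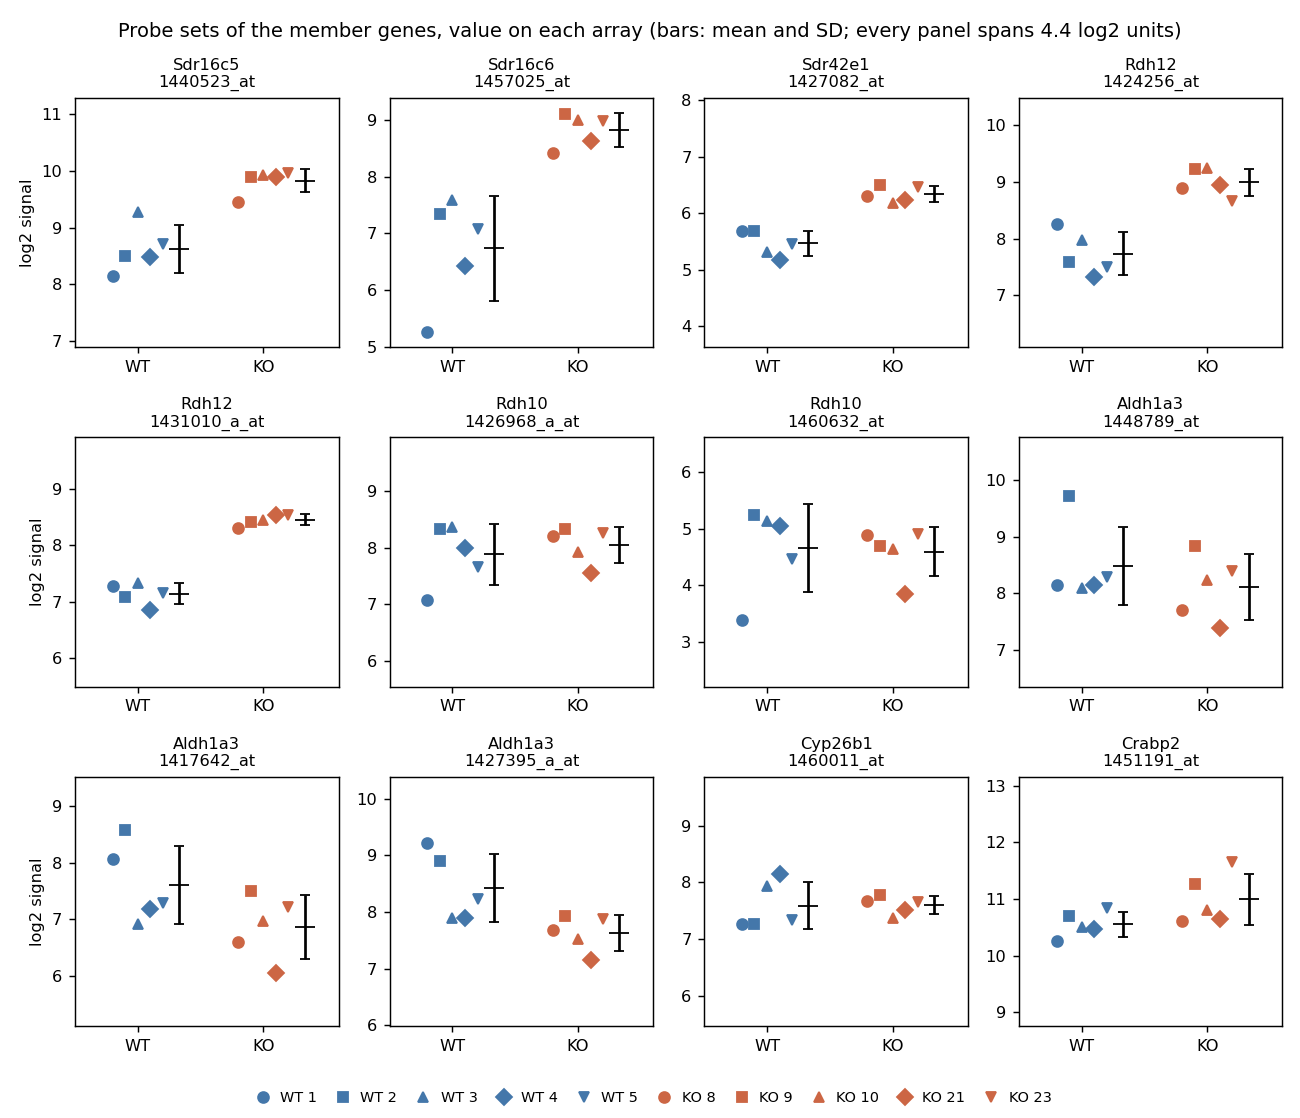
Log2 signal of the 12 probe sets on each of the 10 arrays, WT in blue and KO in orange, with 1 symbol per array and the mean ± SD of each group (n = 5) in black. All KO symbols sit above all WT symbols for Sdr16c5, Sdr16c6, Sdr42e1 and both probe sets of Rdh12, and the groups overlap in the other 7 panels, whose axes have the same length.

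Sdr16c5 and Sdr16c6 encode closely related membrane-bound retinol dehydrogenases of epithelia, and in the gene table they are neighbours with no other protein-coding gene between them. Sdr16c5 read 8.14, 8.50, 9.28, 8.49 and 8.71 on WT 1 to 5 and 9.46, 9.90, 9.94, 9.90 and 9.97 on KO 8, 9, 10, 21 and 23 (log2 signal, in this order of arrays throughout). The groups did not overlap, but the highest WT array, WT 3, came within 0.18 of the lowest KO array, KO 8. The mean went from 8.62 ± 0.42 to 9.83 ± 0.21 (SD, n = 5 each), a difference of 1.21 (SE 0.20).

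Sdr16c6 read 5.26, 7.34, 7.58, 6.42 and 7.08 on the WT arrays and 8.41, 9.10, 9.01, 8.63 and 8.99 on the KO arrays. WT 1 was the lowest by 1.16 and the WT arrays covered 2.32 log2 units against 0.69 in KO. The mean went from 6.74 ± 0.93 to 8.83 ± 0.29 (SD, n = 5 each), a difference of 2.09 (SE 0.36), the largest of the 8 genes. Without WT 1 the difference was 1.72.

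The protein-coding genes that flank the pair in the gene table were looked at after these values were seen. Chchd7, on the side of Sdr16c5, differed by 0.16 (SE 0.24, limma adjusted p = 0.881, n = 5 each) and its 3 other probe sets by -0.20 to 0.31. Penk, the proenkephalin gene on the side of Sdr16c6, differed by 0.83 (SE 0.29, limma adjusted p = 0.205). Neither passed the threshold, which does not show that they were equal in the groups.

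Rdh12, encoding an enzyme best known for reducing retinaldehyde in photoreceptors, was read by 2 probe sets. The brighter, 1424256_at, read 8.26, 7.59, 7.98, 7.33 and 7.50 in WT and 8.89, 9.23, 9.24, 8.94 and 8.67 in KO. The dimmer, 1431010_a_at, read 7.27, 7.09, 7.34, 6.86 and 7.15 in WT and 8.31, 8.41, 8.45, 8.53 and 8.54 in KO. On both, every KO array was above every WT array, with a gap between the groups of 0.41 on the first and 0.97 on the second. The differences were 1.26 (SE 0.19) and 1.31 (SE 0.13), so the 2 probe sets gave the same size within their errors. On WT 1 the brighter probe set of Rdh12 was at its highest WT value while Sdr16c5 and Sdr16c6 were at their lowest.

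Sdr42e1, encoding another dehydrogenase of this superfamily, had the lowest mean signal of the measured genes on their brightest probe sets. Sdr42e1 read 5.69, 5.68, 5.32, 5.18 and 5.46 in WT and 6.31, 6.49, 6.18, 6.23 and 6.46 in KO. The groups were 0.48 apart at their closest and the spread was small in both, 5.47 ± 0.23 and 6.33 ± 0.14 (SD, n = 5 each), with a difference of 0.87 (SE 0.14). All its values were above the array medians of 5.02 to 5.17, and whether RMA compressed the 1.82-fold difference was not tested.

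Rdh10 encodes the retinol dehydrogenase that supplies retinaldehyde for retinoic acid in the embryo. Its brighter probe set, 1426968_a_at, read 7.07, 8.33, 8.37, 8.00 and 7.66 in WT and 8.21, 8.33, 7.92, 7.56 and 8.26 in KO. Apart from WT 1, which was lowest, the 2 groups covered nearly the same range. The difference was 0.17 (SE 0.25), and it was -0.03 without WT 1. The dimmer probe set, 1460632_at, read 3.39, 5.25, 5.14, 5.05 and 4.47 in WT and 4.89, 4.69, 4.64, 3.85 and 4.90 in KO, a difference of -0.06 (SE 0.33). Its value on WT 1 lies within the range of 2.08 to 3.84 that 3 Y-linked genes gave on 6 arrays where those genes were silent, so that value may be background.

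Aldh1a3 encodes a retinaldehyde dehydrogenase, the enzyme type that makes retinoic acid. Probe set 1448789_at, the brightest on average, read 8.14, 9.72, 8.10, 8.15 and 8.29 in WT and 7.70, 8.84, 8.24, 7.38 and 8.40 in KO. WT 2 stood 1.43 above the next WT array, and the other 4 WT arrays lay inside the KO range. The difference was -0.37 (SE 0.34), and -0.06 without WT 2.
Probe set 1427395_a_at read 9.22, 8.90, 7.89, 7.89 and 8.24 in WT and 7.69, 7.93, 7.52, 7.15 and 7.87 in KO. Here the groups nearly parted, with KO 9 above WT 3 and WT 4 by a few hundredths, and the difference was -0.80 (SE 0.27). The third, 1417642_at, read 8.07, 8.57, 6.91, 7.18 and 7.29 in WT and 6.59, 7.50, 6.96, 6.05 and 7.22 in KO, a difference of -0.74 (SE 0.34). All 3 probe sets had the lower mean in KO, and 1427395_a_at and 1417642_at were lower at an unadjusted limma p below 0.05. Nothing is read from these p-values, because the gene was chosen with its differences known. The 3 probe sets share the arrays and deviated together, so they are not independent readings. Of the 3, 0 passed the threshold over the 34945 probe sets tested, of which 1.76% were called. The brightest gave the smallest difference, so the size depends on the probe set.

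Cyp26b1 encodes a cytochrome P450 that breaks down retinoic acid. It read 7.27, 7.27, 7.93, 8.15 and 7.33 in WT and 7.67, 7.78, 7.37, 7.52 and 7.65 in KO. WT 3 and WT 4 were the highest of all arrays and the other 3 WT arrays the lowest, so the KO arrays fell between them. The means were 7.59 ± 0.42 and 7.60 ± 0.16 (SD, n = 5 each), with a difference of 0.01 (SE 0.19).

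Crabp2 encodes the cytosolic protein that carries retinoic acid to its receptor. It read 10.26, 10.70, 10.51, 10.48 and 10.84 in WT and 10.62, 11.26, 10.80, 10.65 and 11.65 in KO. KO 9 and KO 23 were above every WT array and the other 3 KO arrays were not. The difference was 0.44 (SE 0.21), or 1.36-fold, and it did not pass the threshold.

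**Figure D2:**
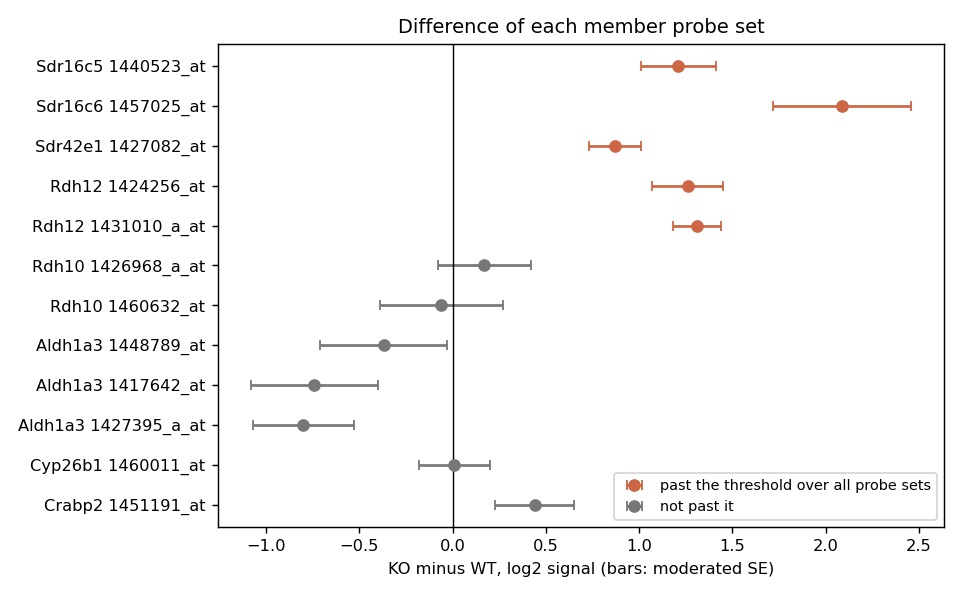
KO minus WT difference of each of the 12 probe sets in log2 units, with limma's moderated standard error (n = 5 arrays per group). The 5 orange points, from 0.87 to 2.09, are past the threshold over all probe sets, and the 7 grey ones, from -0.80 to 0.44, are not.

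In the array names the arrays labelled KO carried the running numbers 6 to 10 and those labelled WT the numbers 1 to 5, so array order and group cannot be told apart. With the array number as a covariate, 0 of the 8 genes and 0 of all genes were called by limma. The log2 differences were then 1.42 for Rdh12, 1.19 for Sdr16c6, 1.13 for Sdr42e1 and 0.93 for Sdr16c5, with larger errors. The probe sets of the targeted gene read higher in the arrays labelled KO, by 1.15 (SE 0.33, limma adjusted p = 0.102) on the brightest for Sgpp1 and by 0.51 and 1.24 on the other 2. Whether they lie in the disrupted part is not given, so the direction of every difference rests on the labels. WT 1 correlated least with the other arrays (mean r 0.955 over all probe sets, at least 0.967 for each other array). Krt5, the basal keratin, read 12.78 ± 0.06 in WT and 12.73 ± 0.10 in KO (SD, n = 5 each). The mean of 9 keratinocyte genes lay between 10.62 and 10.78 in WT and between 10.75 and 11.09 in KO, and 4 of the 5 KO arrays were above every WT array. Their median difference was 0.22, and 0 of the 9 were called (limma), with 2 higher and 0 lower at an unadjusted p below 0.05.

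Within the groups the genes varied more among WT than among KO arrays. The SD was larger in WT for 7 of the 8 genes on their brightest probe sets, and for 62.0% of all genes. Over the probe sets it was larger in WT for 11 of the 12, the exception being Crabp2. To follow how the genes varied from array to array apart from the group difference, each group's mean was subtracted and the deviations were compared over the 10 arrays. These correlations share the arrays and their processing and are a description. Sdr16c5 and Sdr16c6 deviated together with a Pearson r of 0.80 and a Spearman rho of 0.67, and r was 0.49 without the 2 arrays farthest from the median. Sdr16c6 and Rdh10 had an r of 0.77, a rho of 0.65 and an r of 0.32 without 2 arrays. In both pairs the 2 arrays were WT 1, the lowest in WT for both genes, and WT 3, so the relation rested in part on them. Sdr42e1 and Rdh12, which also rose, did not follow Sdr16c5 within the groups (r -0.37 and -0.01).

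**Figure D3:**
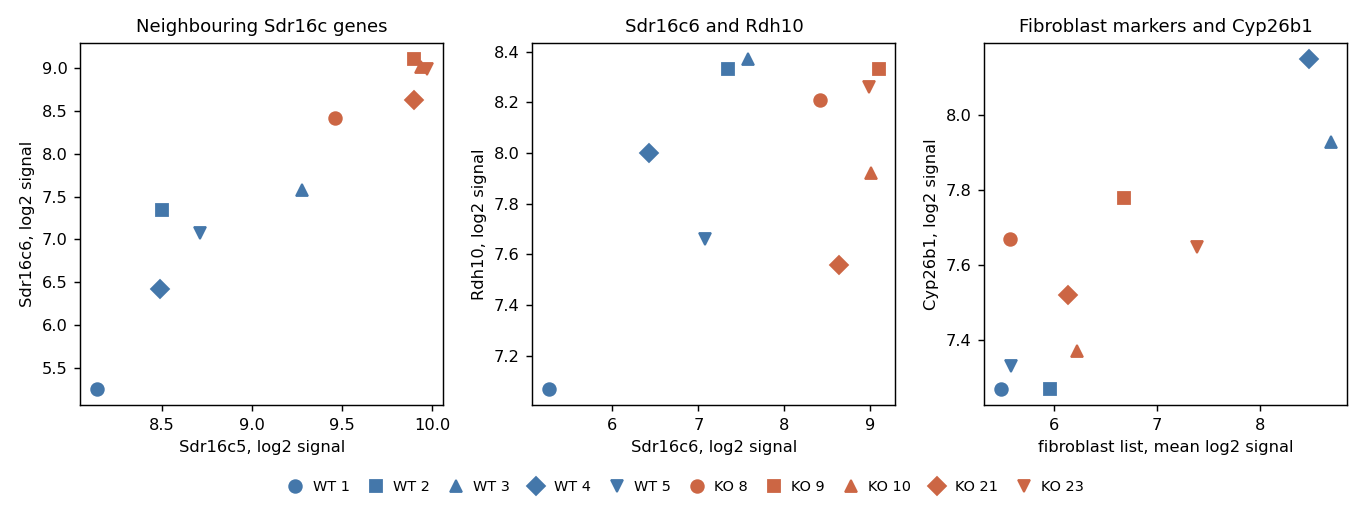
Log2 signal of pairs of quantities on the 10 arrays, WT in blue and KO in orange with the same symbols per array in the 3 panels. Group means are not subtracted here. Sdr16c5 and Sdr16c6 run together along the arrays (left), a trend that includes the KO minus WT difference of both genes. Rdh10 and Sdr16c6 share their low value on WT 1 (middle). Cyp26b1 is highest on WT 3 and WT 4, where the mean of the fibroblast list is 8.69 and 8.48 (right).

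The 2 probe sets of Rdh10 deviated together (r 0.96, rho 0.88, and 0.85 without 2 arrays). Those of Rdh12 did so less (r 0.55, rho 0.54, and 0.29 without 2 arrays). The SD of its dimmer probe set was 0.19 in WT and 0.10 in KO, and that of the brighter 0.38 and 0.24. Among the Aldh1a3 probe sets r was 0.86 and 0.87 for 1417642_at with the other 2, and 0.54 between those 2.

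Of 8243 other genes with a mean log2 signal of at least 6, those whose deviations were most like each gene's were listed. For Sdr16c6 they were Klhl2 and Egr3 (r 0.98 each), for Sdr16c5 Dnase2a and Dsc3 (0.94 each), for Sdr42e1 Ggact (0.94) and Tpd52l1 (0.92) and for Rdh12 Gfra2 (0.93) and Cplx2 (0.90). For Rdh10 they were Micu2 (0.98) and Pcbd2 (0.96), for Aldh1a3 Meis2 (0.97) and Vsig10 (0.93), for Cyp26b1 Ddr2 (0.93) and Timp1 (0.91), and for Crabp2 Ttf1 (0.96) and Kalrn (0.94). With 10 arrays and this many genes such values are the top of a long list, and the 8 genes had 16 different nearest genes. Without the 2 farthest arrays r for Dnase2a fell to 0.77, with a rho of 0.58, and that for Dsc3 was 0.90, with a rho of 0.95.

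Markers of other skin cells moved with some of these genes. The 12 fibroblast markers had a mean log2 signal of 8.69 on WT 3 and 8.48 on WT 4, against 5.48 to 5.96 on the other WT arrays and 5.57 to 7.39 on the KO arrays. Of the 12, Lum and Fap read at the level of the Y-linked background in both groups, and Col1a1 and Vim were well above it on every array. The deviations of Cyp26b1 followed those of this list (r 0.86, rho 0.87, and 0.68 without 2 arrays), and without WT 3 and WT 4 the difference of Cyp26b1 was 0.31 (SE 0.16). Sdr16c5 also followed this list (r 0.63, rho 0.54, and 0.63 without 2 arrays). Sdr42e1 went the opposite way (r -0.54, rho -0.61), but hardly so without 2 arrays (-0.07). The other genes had an r between -0.22 and 0.55. Without WT 3 and WT 4 the 4 dehydrogenase genes had differences of 2.27 for Sdr16c6, 1.38 for Sdr16c5, 1.21 for Rdh12 and 0.72 for Sdr42e1. In such bulk samples a change in the number of cells of a type and a change in RNA per cell cannot be told apart.

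The 8 melanocyte markers, brightest in Tyrp1, ran from 6.30 on WT 1 to 9.35 on WT 5 and from 7.62 to 9.18 in KO, and 0 of the 8 were called (limma, 0 in either direction at an unadjusted p below 0.05). All 8 differences were positive, from 0.26 to 0.91 with a median of 0.69. Sdr16c5 followed this list within the groups (r 0.69, rho 0.84, and 0.73 without 2 arrays). So did Crabp2 (r 0.61, rho 0.62, and 0.55) and, less without 2 arrays, Sdr16c6 (r 0.65, rho 0.52, and 0.30). The other genes had an r between -0.49 and 0.27. Of 11 sebocyte markers 1 rose, Cidea, a lipid droplet gene, by 3.58-fold with a limma adjusted p of 0.00412, while the brightest, Scd1, differed by 0.35 (SE 0.38). The mean of the sebocyte list lay between 4.94 and 5.33 in WT and between 5.04 and 5.49 in KO. Within the groups the deviations of Sdr16c6 followed this list (r 0.67, rho 0.70, and 0.71 without 2 arrays), as did those of Aldh1a3 (r 0.74, rho 0.70, and 0.76) and Crabp2 (r 0.72, rho 0.76, and 0.51). Rdh10 had an r of 0.57 with the sebocyte list, a rho of 0.60 and an r of 0.74 without 2 arrays. The other genes had an r between -0.12 and 0.55. With the keratinocyte list Crabp2 ran the opposite way (r -0.88, rho -0.79, and -0.62 without 2 arrays), and the other genes had an r between -0.35 and 0.42. The relations named here were picked from many pairs of a gene and a marker list. Of 13 hair follicle markers 2 rose, Tchh, the trichohyalin gene, by 4.67-fold and Gata3 by 1.59-fold (limma adjusted p = 0.00773 and 0.0202), and 8 of the 13 were at background in both groups. Gata3 lost its call in 6 of 18 other settings, among them without WT 4, KO 10 or KO 21, where its difference was 0.64, 0.63 and 0.64. Sox9, the brightest of the hair follicle markers, differed by -0.04. Rdh12 followed the hair follicle list within the groups (r 0.75, rho 0.58, and 0.60 without 2 arrays), as did Sdr42e1 (r 0.54, rho 0.60, and 0.53). For this list the other genes had an r between -0.34 and 0.32. Immune and endothelial lists had 0 called genes of 10 and 6 (limma, 0 and 1 at an unadjusted p below 0.05), with Lyz2 and Pecam1 the brightest at differences of -0.58 and -0.30. The part of these cell types in the differences of the dehydrogenase genes was not tested.

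The other genes of retinoid handling were read from 5 lists by role, 73 genes of which 63 were measured. Of these 4 rose, 0 fell and 59 did not pass (limma, adjusted over all genes), with 11 higher and 3 lower at an unadjusted p below 0.05, and a median difference of 0.07 against -0.01 for all genes. The 4 of 63 stand beside 2.30% of all genes called higher, and nothing particular to the list is read from them. The signal of 20 of the 63 was at or below the Y-linked background in both groups.

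Among 17 other retinol and retinaldehyde oxidoreductases 1 rose, Rdh9, a rodent retinol dehydrogenase gene. It read 5.71, 4.93, 5.01, 4.04 and 4.24 in WT and 6.59, 7.11, 6.58, 6.48 and 6.60 in KO, a 3.70-fold difference with a limma adjusted p of 0.00238. The groups did not overlap. Its only probe set carries the suffix that Affymetrix uses for probes shared by related transcripts, so other members of this gene cluster may add to it. Rdh11 (0.25, limma adjusted p = 0.474) and Dhrs3 (-0.03, adjusted p = 0.984), which reduce retinaldehyde to retinol, did not pass and were named after their values were seen.

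Of 6 measured genes for making and removing retinoic acid besides Aldh1a3 and Cyp26b1, 1 rose. It was Cyp2s1, a cytochrome P450 gene of epithelia, which read 5.72, 6.26, 5.93, 5.61 and 5.55 in WT and 7.54, 6.89, 7.52, 7.22 and 6.50 in KO. This is a 2.50-fold difference (limma adjusted p = 0.00460) with no overlap. The signal of 4 of the 6 was at or below the background in both groups. Among them were Aldh1a1 at 2.22 ± 0.16 in WT, Aldh1a2 at 3.26 ± 0.37 and Cyp26a1 at 3.69 ± 0.40 (SD, n = 5 each), so Aldh1a3 was the retinaldehyde dehydrogenase gene of the Aldh1a1 to Aldh1a3 group with a signal above background on every array. A signal at background does not show that a gene is silent.

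Of 19 measured genes for uptake, storage and binding 1 rose, Rbp2, encoding a cellular retinol-binding protein. It read 6.74, 6.57, 6.73, 5.99 and 5.15 in WT and 8.41, 7.68, 7.90, 7.74 and 7.48 in KO, 3.05-fold higher (limma adjusted p = 0.00957), again with no overlap. Fabp5, which carries retinoic acid among other fatty acids, differed by 0.45 on its brightest probe set (limma adjusted p = 0.171) and by 0.73 on another, which passed over all probe sets. Crabp1, the relative of Crabp2, ran from 6.91 to 10.83 in WT and from 6.32 to 9.93 in KO, with its highest values on WT 3 and WT 4, the arrays with the highest fibroblast markers. Its difference was 0.30 (SE 0.85). Lrat, which esterifies retinol for storage, and Stra6, a retinol transporter gene, had WT means of 3.75 and 3.49, at the background. Some WT arrays were above it, Lrat at 4.29, 3.94 and 3.99 on WT 1, WT 2 and WT 3 and Stra6 at 5.06 on WT 1. Fabp5, Crabp1, Lrat and Stra6 were named after their values were seen.

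Of 11 measured receptor and coregulator genes 0 passed (limma), with 3 higher and 0 lower at an unadjusted p below 0.05. Ncoa1, a coactivator gene, had the smallest adjusted p, with a difference of 0.60 (SE 0.18, limma adjusted p = 0.130). The receptor genes Rarg, Rara and Rxra differed by 0.04 (SE 0.31), -0.09 (SE 0.14) and 0.20 (SE 0.17), and these 3 were named after their values were seen.

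Of 16 measured genes known to respond to retinoic acid 1 rose, Rarres1, whose name stands for retinoic acid receptor responder. It read 3.83, 4.52, 4.89, 3.92 and 3.87 in WT and 5.12, 6.22, 6.78, 5.27 and 5.59 in KO, 3.01-fold higher (limma adjusted p = 0.0167). Of the WT arrays 1 was at the background, and WT 4 and WT 5 were just above its upper end of 3.84. The WT mean thus rests in part on values near the background. The call was lost without WT 4 and without KO 9, with differences of 1.52 and 1.49, and without WT 1, WT 2 and KO 8 together, at 1.74. Cyp26a1, Stra6, Lrat and Dhrs3 are on this list too, and their differences lay between -0.03 and 0.07. The means of Cyp26a1, Stra6 and Lrat were at the background in both groups, so their small differences say little. Of the 16, 5 were at or below the background in both groups. At an unadjusted limma p below 0.05, 2 were higher and 2 lower. The largest difference downwards was that of Tgfb2, at -0.84 (SE 0.36, limma adjusted p = 0.326), named after its value was seen. Its 3 other probe sets differed by -1.13 to -0.31, and 0 of them passed over all probe sets.

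**Figure D4:**
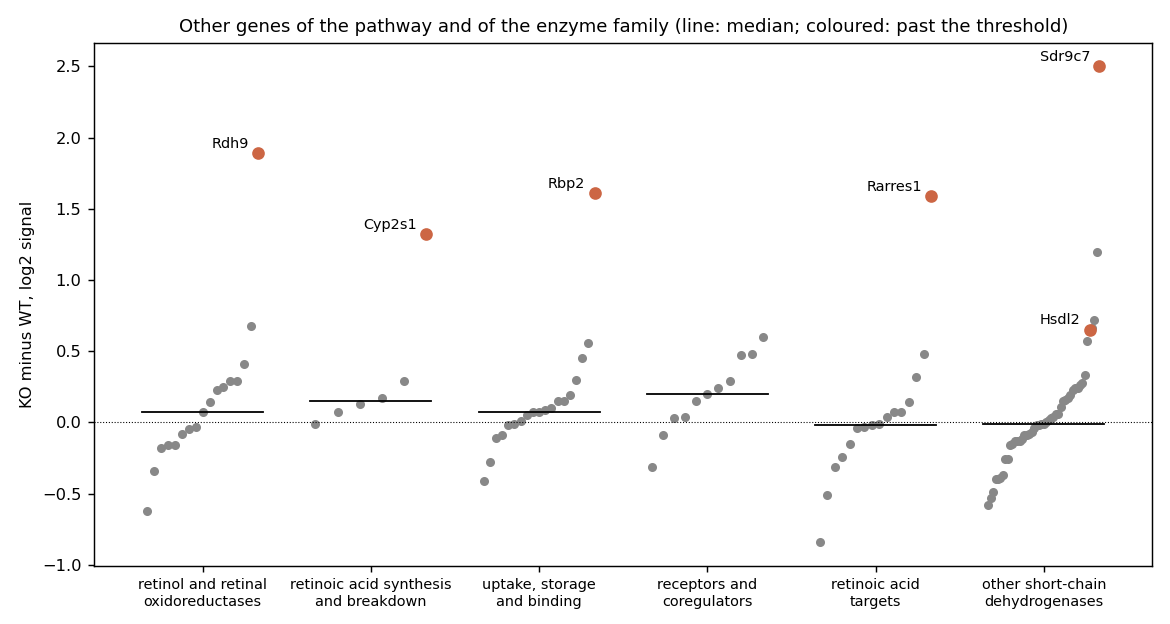
KO minus WT difference in log2 units of each measured gene of the 5 retinoid lists and of the other short-chain dehydrogenases, 1 point per gene, sorted within a list, with the list's median as a line. The 6 coloured and named points passed the limma threshold over all genes, all with positive differences, and the medians lie between -0.02 and 0.20.

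Of 47 other measured short-chain dehydrogenase genes, on none of the retinoid lists, 2 rose, Sdr9c7 and Hsdl2, and 0 fell (limma). At an unadjusted limma p below 0.05, 6 were higher and 3 lower, and the median difference was -0.01. The 2 of 47 stand beside 2.30% of all genes called higher, and nothing particular to the list is read from them. Sdr9c7, which acts on acylceramides of the skin barrier, read 7.08, 7.64, 7.88, 6.86 and 8.20 in WT and 9.69, 10.26, 10.16, 10.29 and 9.77 in KO, with an adjusted p of 2.22e-04 by limma. Its groups were farther apart than those of any of the 4 dehydrogenase genes described above on their brightest probe sets. The closest arrays of Sdr9c7 were WT 5 and KO 8. Hsdl2, a peroxisomal dehydrogenase-like gene, differed by 0.65 (SE 0.16, limma adjusted p = 0.0498), its groups overlapped, and it kept its call in only 3 of 18 other settings. Hpgd, which inactivates prostaglandins, differed by 1.20 (limma adjusted p = 0.0518) on its brightest probe set and did not pass, and its other probe set, at 1.71, did over all probe sets. It was named after its values were seen.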

How the data were processed

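Total RNA was extracted with Trizol and 6 ug of it was labelled with biotin, per the labels' protocols. The deposited values are log2 expression values made by the authors with RMA, per the submitters' processing notes. Version and software are not given in the sources used here. RMA brings all arrays to 1 distribution and compresses differences near background. They span 1.13 to 14.92, with medians of 5.02 to 5.17 per array, and no further normalisation was applied. The 5 arrays per group limit the precision. Of 45101 probe sets, 34945 had exactly 1 gene in the platform annotation, 932 several and 9160 none, besides 64 controls. Identifiers of 34741 were found in the RefSeq gene table (GRCm38.p6), which gave current symbols. The probe set with the highest mean stood for a gene. KO minus WT was fitted with limma 3.58.1 in R 4.3.3 (lmFit, eBayes, two-sided), adjusted by Benjamini-Hochberg over 18193 genes, or over the 34945 probe sets for single probe sets. SE is the moderated standard error. The fit was tested on simulated data with independent noise and larger changes than those of Sdr16c5, Sdr42e1 and Rdh12. The simulated data held no effect shared by the genes of an array and no array order, so the test says nothing about either. Promoter sequences are from RefSeq, and 3 of the motifs were added after the sequences were seen, those other than the nuclear receptor and AP-1 ones.

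The genes and lists were chosen with earlier results of these data known. The genes to name were all 9, every called gene of the retinoid lists (or the one with the smallest adjusted p), the called short-chain dehydrogenases, the 2 genes most like each member, and the brightest marker of each other cell type. The alternatives were the mean over probe sets, an intensity trend with a robust prior, a minimum mean of 5, median centring, arrays left out and the array number as a covariate. A block for Y-linked signal and leaving out WT 3 and WT 4 were chosen after seeing the data.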

Additional observations from a re-analysis of the deposited data

Results flagged for a closer look

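Within a group of 5 arrays, 1 value stood far from the other 4 in 4 cases. Of the 42 groups looked at, about 1 in 20 would do so by chance. Sdr16c5 read 9.46 on KO 8 against 9.90 to 9.97 on the other KO arrays. The dimmer Rdh10 probe set, 1460632_at, read 3.85 on KO 21 against 4.64 to 4.90. That value lies just above the upper end of the Y-linked background, 3.84. The brightest Aldh1a3 probe set, 1448789_at, read 9.72 on WT 2 against 8.10 to 8.29. Rdh9 read 7.11 on KO 9 against 6.48 to 6.60.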

How the results depend on the processing

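No paired analysis was possible because WT and KO share no replicate number. Leaving out single arrays gave differences of 1.09 to 1.37 for Sdr16c5, 1.72 to 2.30 for Sdr16c6, 0.79 to 0.92 for Sdr42e1 and 1.16 to 1.39 for Rdh12. With the array number as a covariate, the genes called higher went from 4 to 0 here, from 4 to 0 among the other retinoid genes and from 2 to 0 among the other short-chain dehydrogenases. In that fit order and group cannot be told apart. The count of other short-chain dehydrogenases higher ranged from 1 to 2 when single arrays were left out (1 without WT 1, WT 4, WT 5, KO 9, KO 10, KO 21 or KO 23) and was 1 with a block for Y-linked signal and 1 without WT 3 and WT 4. It was 3 with a minimum mean of 5 and with each array centred on its median, where Hpgd was added at 1.20 and 1.21. Hsdl2 lost its call in 15 of the 18 settings, also without WT 2 and without KO 8, where the count stayed at 2. The count lower ranged from 0 to 1, the 1 being Decr1 without WT 5.
Of the genes not called, Rdh10 turned to -0.03 to 0.29 when single arrays were left out and to -0.24 with the array number. Aldh1a3 turned to 0.03 without WT 1, WT 2 and KO 8. Cyp26b1, at 0.01, ran from -0.07 to 0.15 when single arrays were left out and was -0.22 without WT 1, WT 2 and KO 8 and -0.20 with the array number. The cause was not tested.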
